A study of Mus musculus with 6 samples.

Results

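The genes described are those of fatty acid synthesis and cholesterol synthesis, read in the fat pad that forms the stroma of the mouse mammary gland. They were chosen by name: 16 genes of the fatty acid arm and 15 of the sterol arm, 31 in all. A gene was represented by the probe set that names it alone and has the highest mean over the 6 arrays, and 30 of the 31 had one, out of 20519 genes on the array. Me1, the cytosolic malic enzyme that supplies NADPH, was named only together with other gene models and was left out. The fatty acid arm thus held 15 measured genes and the sterol arm 15, with 72 probe sets between them. The study compared 2 genotypes. Rarb -/- mice lack retinoic acid receptor beta and are called Rarb-null (3 arrays), and Rarb +/+ littermates are called wild type (3 arrays). All were 4 weeks old, and total RNA came from cleared mammary fat pads. One description shared by all 6 samples ties the mice to ErbB2 without naming a transgene, so whether both genotypes carried one is unknown. The strain, the promoter of any transgene, the number of mice behind an array and any pooling are unknown here, and p-values therefore measure the spread between these arrays.

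Fat cells make fatty acids from citrate. Acly cleaves citrate to acetyl-CoA, Acaca and Acacb carboxylate it to malonyl-CoA, Fasn builds palmitate, and the Elovl, Scd and Fads enzymes lengthen and desaturate the product. The sterol arm runs from Hmgcs1 through mevalonate (Mvk, Mvd), the isoprenoids (Idi1, Fdps) and squalene (Fdft1, Sqle) to lanosterol (Lss) and then to cholesterol (Cyp51, Sc4mol, Nsdhl, Dhcr7). Srebf1 and Srebf2 encode the SREBP transcription factors, which switch on both arms. Scap escorts them to the Golgi when sterol is scarce, and Insig1 holds Scap back in the endoplasmic reticulum. Mlxipl encodes ChREBP, a glucose-responsive activator of the fatty acid arm, and Thrsp encodes a protein of fat and liver tied to lipogenesis.

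The promoters of 4 members are shown, picked for their range of signal or their place in the pathway. Elovl6 had the widest range of signal of all members, and Fasn is the central enzyme of its arm. Hmgcs1 opens the sterol arm. Nsdhl had the widest range of the sterol arm genes with a promoter sequence. Fdft1 had a wider range but no such sequence. Sequences are from RefSeq on GRCm38.p6, 5′ to 3′, from 250 bases before to 50 bases after a transcript start. Capitals mark any match, on either strand, to the sterol regulatory element letters TCACNCCAC, the CCAAT box CCAAT, the GC box GGGCGG or the E-box CACGTG, and adjoining matches run together.
Elovl6 promoter window, chr3:129532136-129532435, plus strand: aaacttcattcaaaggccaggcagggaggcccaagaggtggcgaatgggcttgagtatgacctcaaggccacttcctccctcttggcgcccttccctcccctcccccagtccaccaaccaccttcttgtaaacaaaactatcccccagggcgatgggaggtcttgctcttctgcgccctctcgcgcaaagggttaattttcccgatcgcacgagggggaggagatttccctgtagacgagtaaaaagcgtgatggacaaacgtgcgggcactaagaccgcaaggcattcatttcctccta
Fasn promoter window, chr11:120824498-120824797, minus strand: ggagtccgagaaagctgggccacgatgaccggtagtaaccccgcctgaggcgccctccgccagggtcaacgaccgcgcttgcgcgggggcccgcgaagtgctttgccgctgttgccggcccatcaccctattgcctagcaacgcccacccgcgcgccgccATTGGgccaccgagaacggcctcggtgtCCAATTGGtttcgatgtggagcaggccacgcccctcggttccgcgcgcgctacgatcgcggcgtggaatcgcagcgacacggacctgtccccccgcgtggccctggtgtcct
Hmgcs1 promoter window, chr13:119690101-119690400, plus strand: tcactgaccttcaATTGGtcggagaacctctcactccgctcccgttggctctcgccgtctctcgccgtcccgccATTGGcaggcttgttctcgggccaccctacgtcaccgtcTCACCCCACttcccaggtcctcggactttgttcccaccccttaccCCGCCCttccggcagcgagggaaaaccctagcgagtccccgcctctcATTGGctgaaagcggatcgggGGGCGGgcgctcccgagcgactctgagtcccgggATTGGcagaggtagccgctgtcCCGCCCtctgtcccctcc
Nsdhl promoter window, chrX:72918271-72918570, plus strand: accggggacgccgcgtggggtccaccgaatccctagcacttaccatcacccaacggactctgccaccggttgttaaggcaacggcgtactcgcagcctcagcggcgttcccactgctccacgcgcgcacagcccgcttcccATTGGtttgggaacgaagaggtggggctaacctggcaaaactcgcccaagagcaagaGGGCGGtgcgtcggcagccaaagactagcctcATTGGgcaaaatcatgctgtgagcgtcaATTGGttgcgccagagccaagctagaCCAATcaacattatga

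Windows were found for 25 of the 31 genes, 33 windows in all. Fads1, Fdft1, Fdps, Scd1, Scd2 and Sqle had none in the table. A CCAAT box lay in a window of 21 of these 25 genes, against 41.1% of 27025 genes with windows of the same length. A GC box lay in all 12 sterol arm genes with a window and in 7 of 13 of the fatty acid arm, against 38.2% of all genes. The E-box occurred in 5 of the 25 genes, against 8.09% of all genes. The sterol element in its spelled form occurred in 2 genes, against 1.44% of all genes. These were Hmgcs1, where TCACCCCAC begins 137 bases upstream of the start, and a second start of Mlxipl. Of the windows shown, Elovl6 held none of the 4 motifs and Fasn 3 CCAAT boxes with no GC box. Hmgcs1 held 4 CCAAT and 3 GC boxes, and Nsdhl 4 CCAAT boxes and 1 GC box. A match is a string of letters only. Genes can have several starts and hence several chances of a match.

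Values below are RMA signals as deposited, on the log2 scale, so that 1 unit stands for a 2-fold change; triplets run from replicate 1 to replicate 3. Array medians lay between 6.79 and 6.85, and the correlation between arrays ran from 0.981 to 0.996. Rarb itself read 6.50, 6.61 and 7.41 in the Rarb-null pads and 6.95, 6.01 and 6.65 in the wild-type pads at its single probe set. It may lie outside the deleted part, which the labels do not describe, so it checks nothing about the genotypes. White adipocyte markers other than Plin1 were present on every array: Adipoq, the adiponectin gene, read between 14.35 and 14.62. Plin1 read only between 5.85 and 6.29 at the probe set used, below the array medians. Epithelial genes were present as well in these cleared pads, and Epcam, an epithelial adhesion molecule gene, read between 12.71 and 13.61.

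Both arms varied between single arrays far more than between genotypes. With each gene set against its own mean over the 6 arrays, the fatty acid arm averaged 0.20, -0.23 and 0.33 log2 on Rarb-null replicates 1 to 3. On wild-type replicates 1 to 3 it averaged 0.48, -0.48 and -0.31 log2. The highest and the lowest array were thus both wild type. The sterol arm averaged -0.00085, -0.29 and 0.28 log2 in the Rarb-null pads and 0.37, -0.43 and 0.07 log2 in the wild-type pads. It was highest on wild-type replicate 1 and lowest on wild-type replicate 2, like the fatty acid arm. In 9 of 15 fatty acid genes and 4 of 15 sterol genes, wild-type replicate 1 was the highest of the 6 arrays and wild-type replicate 2 the lowest. This combination, picked after the values were seen, held for 4.2% of all genes.

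**Figure D1:**
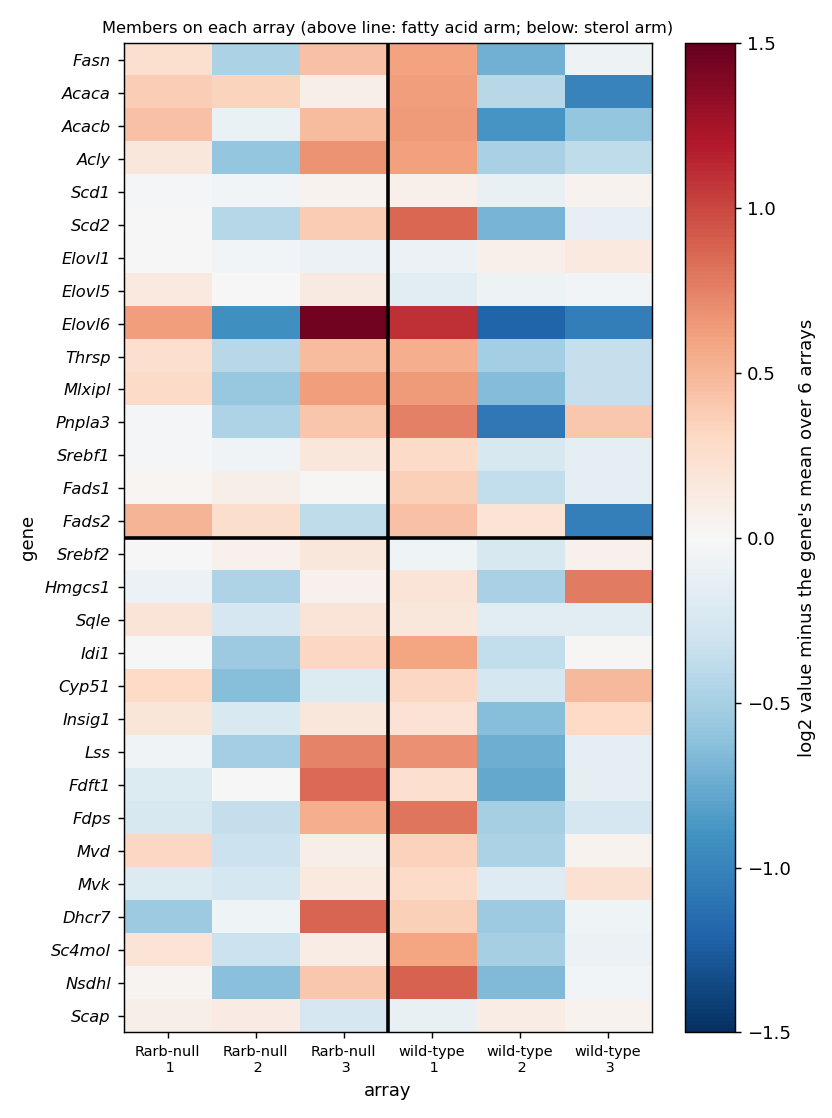
Heat map of the 30 measured genes (rows, fatty acid arm above the line and sterol arm below it) on the 6 arrays (columns); colour is the log2 value minus the gene's mean over the 6 arrays. Wild-type replicate 1 and Rarb-null replicate 3 are above the gene's mean for 26 of 30 genes each, and wild-type replicate 2 for 3 of 30.

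The arms lay farthest apart on wild-type replicate 3, and next on Rarb-null replicate 1. The fatty acid arm minus the sterol arm was 0.20, 0.07 and 0.05 log2 in the Rarb-null pads and 0.12, -0.05 and -0.38 log2 in the wild-type pads. Wild-type replicate 3 lay apart from the other 5 arrays, with low fatty acid genes and sterol genes near or above their means. Of the fatty acid genes, 3 of 15 were above their own mean there, against 8 of 15 sterol genes. On Rarb-null replicate 1 the gap ran the other way, with 11 of 15 fatty acid genes above their mean against 7 of 15 sterol genes. Compared with wild-type replicate 1, wild-type replicate 3 read lower in 13 of 15 fatty acid genes, with a median of 0.89 log2, and in 10 of 15 sterol genes, with a median of 0.32 log2. Compared with wild-type replicate 2, it read higher in 13 of 15 genes of each arm, with medians of 0.17 and 0.48 log2. Since these are single arrays, the comparison has no test.

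**Figure D2:**
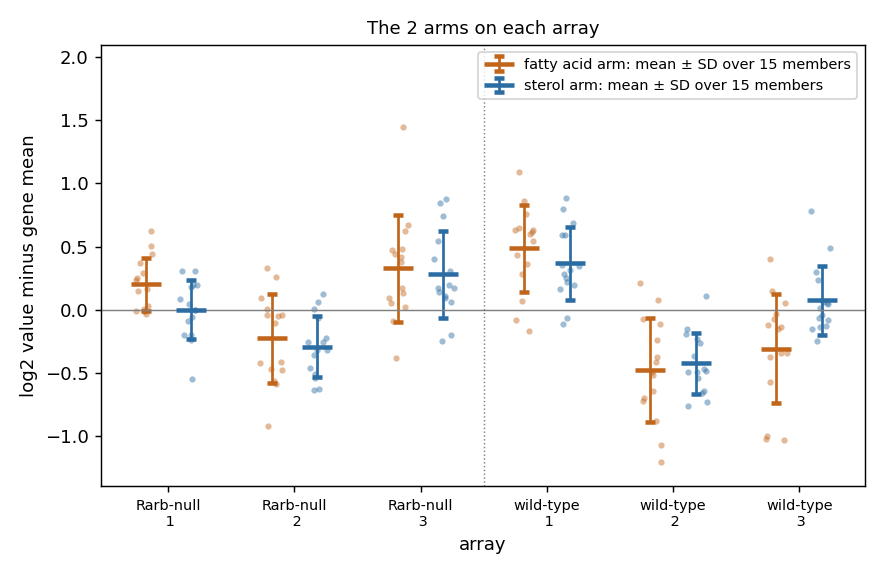
Points are the 15 measured genes of each arm on each array (log2 value minus the gene's mean over the 6 arrays), and bars are the mean ± SD over genes. Both arms lie highest on wild-type replicate 1, at 0.48 and 0.37 log2, and on wild-type replicate 3 the fatty acid arm averages -0.31 against 0.07 log2 for the sterol arm.

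Most members had a wider range than most genes on the array. The range from the lowest to the highest array had a median of 1.29 log2 (2.45-fold) in the fatty acid arm and 1.12 log2 (2.18-fold) in the sterol arm. Over all genes the median was 0.49 log2, and over the 9533 genes at least as bright as the dimmest member it was 0.58 log2. The range exceeded 1 log2 in 10 of 15 fatty acid genes and 9 of 15 sterol genes, against 11.0% of all genes and 16.1% of the bright ones.

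Elovl6, the elongase that carries palmitate to stearate, had the widest range. It read 13.00, 11.45 and 13.82 in the Rarb-null pads and 13.47, 11.17 and 11.34 in the wild-type pads, a span of 6.28-fold. Arrays of both genotypes lay at either end. Pnpla3, which encodes the lipid droplet protein adiponutrin, read 12.93, 12.50 and 13.38 in the Rarb-null pads and 13.73, 11.89 and 13.36 in the wild-type pads. It stayed high on wild-type replicate 3, where Elovl6 was low, and its 3.56-fold span was set by wild-type replicates 1 and 2. Acacb, the carboxylase of the mitochondrial surface, read 10.18, 9.63 and 10.22 in the Rarb-null pads and 10.37, 8.86 and 9.16 in the wild-type pads. The Rarb-null values lay inside the range of the wild-type values.

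Fasn, Acaca and Acly, the other enzymes on the way from citrate to palmitate, also differed most between single arrays. Fasn read 14.21, 13.50 and 14.41 in the Rarb-null pads and 14.58, 13.25 and 13.90 in the wild-type pads, a span of 2.51-fold. Acaca, the cytosolic carboxylase, read 8.71, 8.67 and 8.43 in the Rarb-null pads and 8.97, 7.92 and 7.34 in the wild-type pads. It spanned 3.09-fold, against 2.85-fold for Acacb. Its Rarb-null arrays lay close together and between wild-type replicates 1 and 2. Acly spanned 2.39-fold and Thrsp 2.08-fold, and both had wild-type replicate 1 and Rarb-null replicate 3 as their highest arrays.

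Desaturases and elongases were not alike. Scd2, a stearoyl-CoA desaturase, spanned 2.96-fold between wild-type replicates 1 and 2. Fads2, the delta-6 desaturase of polyunsaturated fatty acids, spanned 2.89-fold but was lowest on wild-type replicate 3 and next lowest on Rarb-null replicate 3. Its order of arrays thus differed from that of Elovl6, which was highest on Rarb-null replicate 3. Fads1, the delta-5 desaturase, spanned 1.66-fold. Elovl1, an elongase of very long chains, and Elovl5, an elongase of polyunsaturated chains, spanned 1.18-fold and 1.25-fold. Neither shared the peak on wild-type replicate 1, which for Elovl5 was the lowest array.

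The probe set chosen for a gene set how much of this range was seen. The Scd1 probe set used read between 15.04 and 15.22, near the highest value of the table, and spanned 1.14-fold. The other Scd1 probe set read 12.28, 11.65 and 12.49 in the Rarb-null pads and 12.92, 11.21 and 12.07 in the wild-type pads, a span of 3.27-fold. The brightest Acly probe set spanned 2.39-fold and the widest of the others 13.7-fold, with 12.47 on Rarb-null replicate 3 against 8.69 on wild-type replicate 3. For Thrsp the widest probe set spanned 6.62-fold against 2.08-fold for the one used. Whether the bright probe sets were saturated was not tested, since the value table holds no flags.

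**Figure D3:**
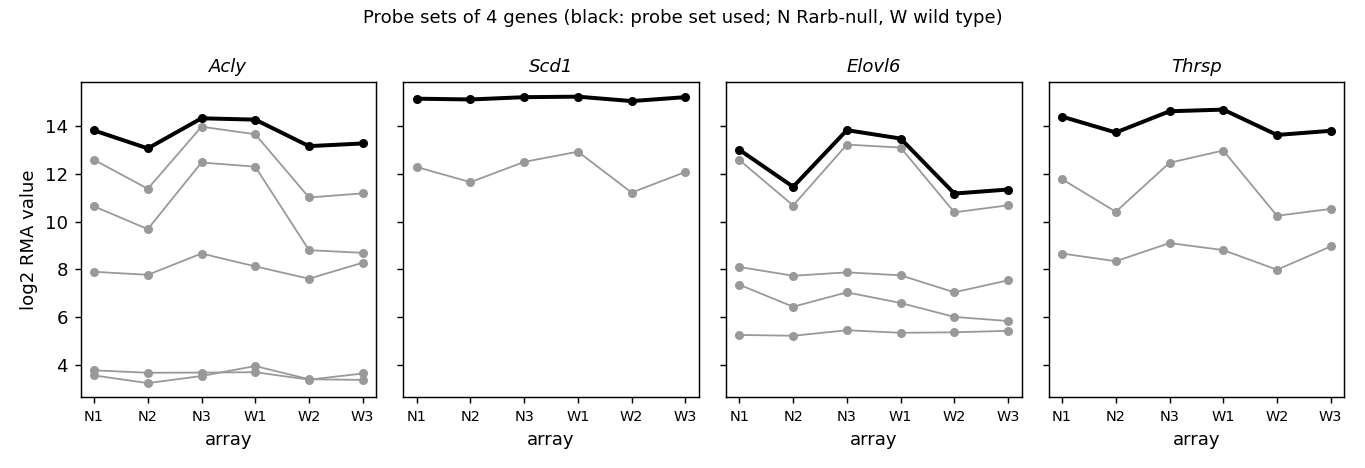
Log2 RMA value of every probe set that names Acly, Scd1, Elovl6 or Thrsp alone, on Rarb-null (N) and wild-type (W) replicates 1 to 3; black is the probe set used, grey the others. The flat black line of Scd1, near 15, has a range of 0.18 log2, and the grey line of Scd1 a range of 1.71 log2.

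The SREBP genes and Scap varied less than most of the enzymes. Srebf1 read 11.72, 11.69 and 11.90 in the Rarb-null pads and 12.02, 11.50 and 11.58 in the wild-type pads, a span of 1.43-fold with its extremes on wild-type replicates 1 and 2. Srebf2 read 8.70, 8.77 and 8.88 in the Rarb-null pads and 8.64, 8.47 and 8.77 in the wild-type pads, and the groups overlapped. Scap read 9.54, 9.57 and 9.20 in the Rarb-null pads and 9.33, 9.56 and 9.50 in the wild-type pads. Its lowest arrays, Rarb-null replicate 3 and wild-type replicate 1, were the highest ones of the sterol arm. Insig1, itself a target of the SREBPs, read 12.92, 12.51 and 12.91 in the Rarb-null pads and 12.96, 12.09 and 13.03 in the wild-type pads. It was highest on wild-type replicate 3. Mlxipl spanned 2.45-fold and was highest on wild-type replicate 1 and Rarb-null replicate 3, as were Acly and Thrsp.

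In the sterol arm, Hmgcs1, the HMG-CoA synthase, read 13.05, 12.67 and 13.20 in the Rarb-null pads and 13.33, 12.65 and 13.92 in the wild-type pads. Wild-type replicate 3, low in the fatty acid arm, was its highest array. Cyp51, the lanosterol demethylase, read 9.93, 8.99 and 9.42 in the Rarb-null pads and 9.94, 9.36 and 10.12 in the wild-type pads, again with wild-type replicate 3 highest. Together with Insig1, these were the 3 sterol genes that peaked there. Sqle, the squalene epoxidase, was highest on Rarb-null replicate 1. It spanned 1.37-fold and Mvk 1.46-fold, less than the 1.77-fold of Mvd and the 2.19-fold of Idi1.

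Nsdhl, Fdps and Sc4mol peaked on wild-type replicate 1, and Lss, Fdft1 and Dhcr7 on Rarb-null replicate 3. Nsdhl, a sterol dehydrogenase, read 10.60, 9.92 and 10.95 in the Rarb-null pads and 11.44, 9.90 and 10.51 in the wild-type pads, a 2.92-fold span. Lss, the cyclase that forms lanosterol, read 9.86, 9.41 and 10.66 in the Rarb-null pads and 10.61, 9.19 and 9.79 in the wild-type pads. Both genes had a high and a low array in each genotype. Fdft1, the squalene synthase, read 11.23, 11.43 and 12.28 in the Rarb-null pads and 11.68, 10.67 and 11.30 in the wild-type pads. Dhcr7, which closes the pathway, read 9.0, 9.48 and 10.42 in the Rarb-null pads and 9.90, 9.0 and 9.48 in the wild-type pads. Rarb-null replicate 3 was the highest array of both, and the groups overlapped. Fdps spanned 2.45-fold and Sc4mol (now Msmo1) 2.12-fold, each between wild-type replicates 1 and 2.

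No member passed the test between genotypes. In limma, 0 of the 30 had an adjusted p under 0.05, as had 0% of all 45037 probe sets, and the smallest adjusted p of a member was 0.908. At an unadjusted p under 0.05 the count over the probe sets used was also 0 in limma, and 0 in the authors' deposited table. At that level in limma, 1.90% of all genes were higher and 3.41% lower on Rarb-null arrays. The groups did not overlap for 1 of 30 members, against 10.6% of all genes. It was Elovl5, at 13.79, 13.64 and 13.77 in the Rarb-null pads and 13.47, 13.56 and 13.60 in the wild-type pads. It differed by 0.19 log2 (95% interval -0.05 to 0.43; adjusted p in limma 0.908). Another Elovl5 probe set also showed no overlap, with a difference of 0.38 log2, and the same adjusted p. The third Elovl5 probe set overlapped, with a difference of 0.08 log2 (adjusted p in limma 0.972). Among probe sets not used for their gene, 1 each of Elovl1, Srebf2, Nsdhl and Scap did not overlap either, with differences of -0.36, 0.16, 0.15 and 0.30 log2. Those of Elovl1, Nsdhl and Scap read below the array medians on every array. No share without overlap was taken over all probe sets, so these show nothing particular to the members. Over all probe sets of the members, 4 of 72 had an unadjusted p under 0.05 in limma, against 5.22% of all probe sets. They belonged to Elovl1, Elovl5, Elovl6 and Sc4mol, and none was the probe set used for its gene. The authors' p was under 0.05 for the same probe sets.

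The fatty acid arm had 11 of 15 genes with a higher Rarb-null mean and the sterol arm 7 of 15, against 47.1% of all genes. The median difference was 0.17 log2 in the fatty acid arm and -0.0088 log2 in the sterol arm, against -0.01 log2 over all genes. These counts turned with single arrays. Without wild-type replicate 2, the lowest array, they were 6 and 4. Without wild-type replicate 1, the highest, or without Rarb-null replicate 2, they were 14 and 11 in either case. The number of members without overlap was 7 without wild-type replicate 1, 6 without wild-type replicate 2 and 2 without any one of the other arrays. Leaving out an array can only keep or raise this number, for any set of genes. The share of 10.6% of all genes holds for all 6 arrays, and none was taken with an array left out. These counts therefore show nothing particular to the members.

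The largest differences of means were those of Elovl6, at 0.76 log2 (95% interval -1.04 to 2.56), Acacb, at 0.55 (-0.36 to 1.45), and Acaca, at 0.53 (-0.35 to 1.40). Their adjusted p in limma was 0.951, 0.923 and 0.925. Without wild-type replicate 1 they were 1.5, 1.0 and 0.97 log2, and without wild-type replicate 2 they were 0.35, 0.25 and 0.45 log2, with none past the threshold. Without wild-type replicate 3, its lowest array, the difference of Acaca was 0.16 log2. Fasn differed by 0.13 log2 (-0.73 to 0.99), Srebf1 by 0.07 (-0.30 to 0.45) and Srebf2 by 0.16 (-0.12 to 0.43). At the probe sets used in the sterol arm, Fdft1 had the largest positive difference, 0.43 log2 (-0.36 to 1.23). Cyp51 had the largest negative one, -0.36 log2 (-1.02 to 0.30). With 1 array left out, Fdft1 ran from 0.12 log2 (without Rarb-null replicate 3) to 0.67 log2 (without wild-type replicate 1). Cyp51 ran from -0.60 log2 (without Rarb-null replicate 1) to -0.13 log2 (without Rarb-null replicate 2), and was -0.07 log2 with its probe sets averaged. Hmgcs1 differed by -0.32 log2 (-1.06 to 0.41), which became -0.65 log2 when wild-type replicate 2 was left out and -0.02 log2 when wild-type replicate 3 was. Hmgcs1 was the more negative of Cyp51 and Hmgcs1 in several of these settings, so their order is not settled. For 17 of the 30 members the interval at the probe set used left out a 2-fold difference in either direction. That is no evidence that the genotypes were equal. Other probe sets of some of these genes had intervals that reached 2-fold, such as that of Scd1, from -0.93 to 1.07 log2.

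**Figure D4:**
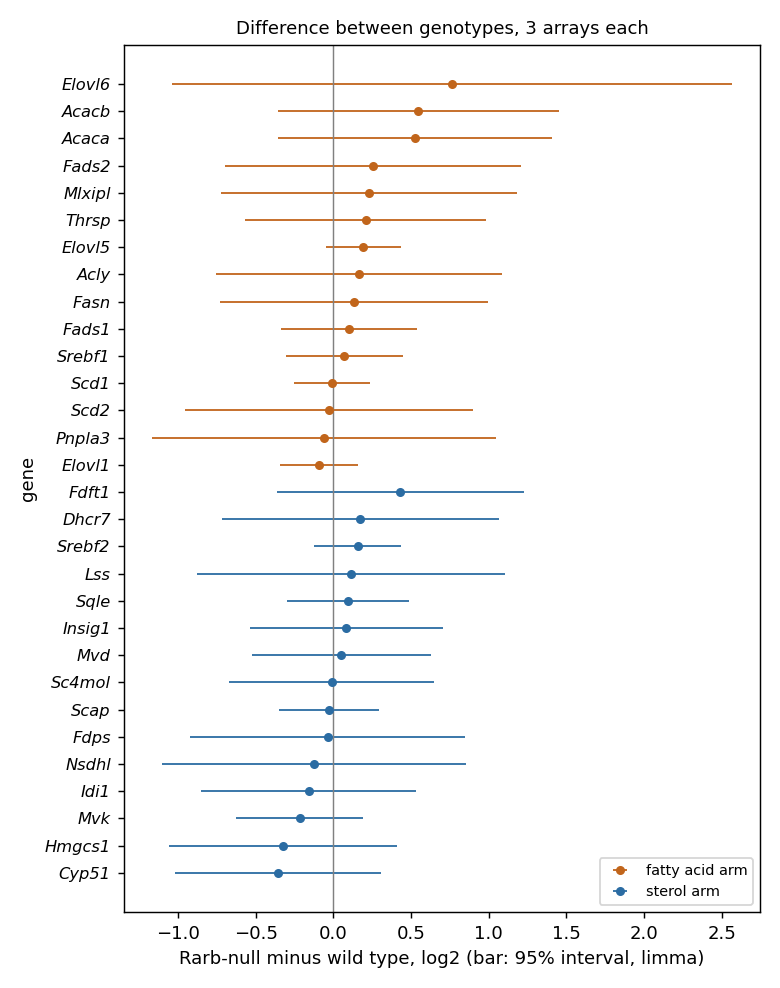
Difference of the log2 means, Rarb-null minus wild type, for the 30 measured genes, with the 95% interval from limma (3 arrays in each group). Every interval includes 0, and the widest, of Elovl6, runs from -1.04 to 2.56.

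The difference between the arms was also set against genotype. The fatty acid arm minus the sterol arm averaged 0.10 ± 0.08 log2 on Rarb-null arrays and -0.10 ± 0.25 log2 on wild-type arrays (SD, n = 3 each). The groups overlapped, since wild-type replicate 1 lay above Rarb-null replicates 2 and 3. The difference of 0.21 log2 became 0.07 log2 without wild-type replicate 3.

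Further lists held other lipogenic genes, and other genes of sterol synthesis, transport, storage and regulation. Of 20 further lipogenic genes that were measured, out of 21 listed, 0 passed in limma in either direction, and the mean was higher in Rarb-null pads for 14, the median difference being 0.13 log2. Aacs, which makes acetoacetyl-CoA for lipid synthesis, read 10.70 ± 0.24 in Rarb-null and 10.03 ± 0.64 in wild-type pads (SD, n = 3 each; adjusted p in limma 0.908). Fabp4, a fatty acid carrier of fat cells, read 14.48 ± 0.07 against 14.73 ± 0.20, and the groups overlapped for both genes. Elovl7 was the 1 of 20 further lipogenic genes without overlap, against 10.6% of all genes. Of 20 further sterol genes, 0 passed in limma, and the mean was higher in Rarb-null pads for 14, the median difference being 0.08 log2, against 7 of 15 and -0.0088 log2 in the sterol arm. Ebp, the sterol isomerase, read 11.46 ± 0.14 in Rarb-null and 11.17 ± 0.18 in wild-type pads, without overlap. Nr1h2, the liver X receptor beta gene, read 8.79 ± 0.04 against 8.98 ± 0.10, without overlap. Both had an adjusted p in limma of at least 0.908. They were the 2 of 20 further sterol genes without overlap, against 10.6% of all genes.

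Marker genes of several cell types moved across the same arrays. In whole tissue, fewer cells of a type and less RNA per cell cannot be told apart. Of the 8 brown adipocyte markers, the list mean relative to its own mean was -0.11, -1.24 and 2.16 log2 in the Rarb-null pads and 0.06, -0.97 and 0.10 log2 in the wild-type pads. The 2 arrays lowest in this list, Rarb-null replicate 2 and wild-type replicate 2, were the lowest ones of the sterol arm. In the fatty acid arm wild-type replicate 3 lay below Rarb-null replicate 2. Ucp1, the uncoupling protein that defines brown fat, read 8.64, 6.11 and 13.28 in the Rarb-null pads and 10.37, 7.29 and 9.49 in the wild-type pads. The 8 white adipocyte markers included the dim Plin1 probe set. Their list mean was -0.20, -0.02 and -0.10 log2 in the Rarb-null pads. In the wild-type pads it was 0.35, -0.32 and 0.29 log2. Wild-type replicate 1 was thus the highest and wild-type replicate 2 the lowest array in white adipocyte markers and in both arms.

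The 7 measured cell cycle genes, of 8 listed, averaged 1.40, 1.43 and -1.65 log2 in the Rarb-null pads and -1.16, 1.40 and -1.42 log2 in the wild-type pads. The 3 arrays with low cell cycle genes were the 3 highest of the sterol arm. The fatty acid arm did not follow them: it was at -0.31 log2 on wild-type replicate 3, with low cell cycle genes, and at 0.20 log2 on Rarb-null replicate 1, with high ones. The 8 mammary epithelial markers averaged 0.33, 0.34 and -0.14 log2 in the Rarb-null pads and -0.21, 0.49 and -0.80 log2 in the wild-type pads. Wild-type replicate 3, where the arms lay farthest apart, was lowest in them and in the 5 milk protein genes. Csn2, the beta-casein gene, read 7.63 on that array and between 13.90 and 14.65 on the other 5. Mean levels of the epithelial list ran from 11.13 to 11.61 on Rarb-null and from 10.47 to 11.76 on wild-type arrays. The 6 skeletal muscle genes averaged 2.11 log2 on wild-type replicate 2 and 1.02 on Rarb-null replicate 3, and between -1.20 and -0.42 on the others. Lists of 5 macrophage and 5 fibroblast markers stayed between -0.27 and 0.28 log2. The macrophage list was lowest on wild-type replicate 1, at -0.27 log2, and highest on wild-type replicate 2, at 0.28 log2. The fibroblast list read -0.27 log2 on wild-type replicate 1, its lowest array, and 0.16 log2 on both wild-type replicate 2 and Rarb-null replicate 2. On wild-type replicates 1 and 2 both lists thus ran opposite to the arms. No list had a member past the threshold in limma. The part of any of these cell types in the differences between arrays was not tested.

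**Figure D5:**
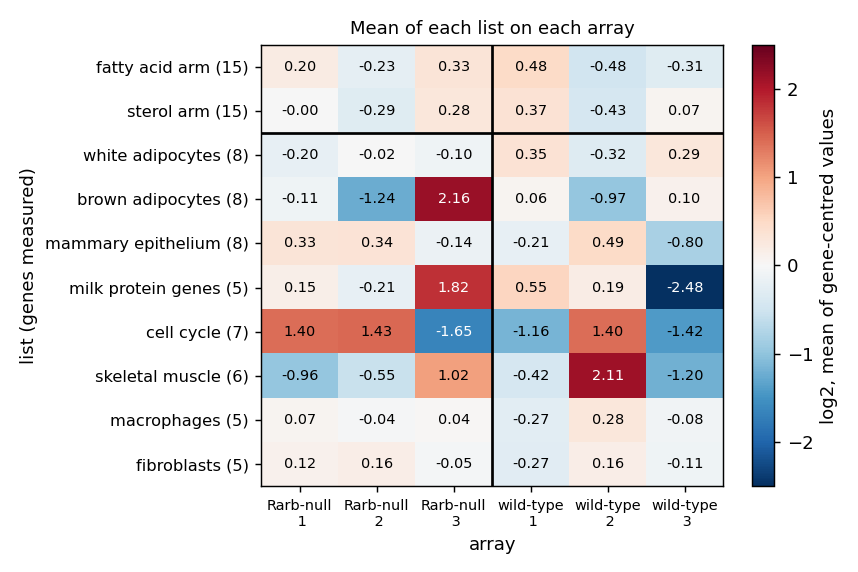
Mean of each gene list (rows, number of genes measured in brackets) on each array (columns), as log2 value minus each gene's mean over the 6 arrays. Brown adipocyte markers reach 2.16 log2 on Rarb-null replicate 3, and milk protein genes -2.48 log2 on wild-type replicate 3.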

How the data were processed

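Total RNA of 6 samples was hybridised to 1 array each. The value table deposited by the authors holds 1 log2 value per probe set and array, made by RMA (no version named), per the submitters' processing notes. RMA equalises the distributions of the arrays, so a shift shared by most genes is removed. Differences between very bright or very dim signals can be compressed on arrays, and at which step was not tested. A second deposited table holds gene symbols, the authors' log2 fold changes and a p-value, alongside a SAM d-score, per the file headers. The array design is unknown here, and no read depth applies: the number of arrays limits the precision.

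After 64 control probe sets were left out, 45037 were tested with limma 3.58.1 in R 4.3.3 (lmFit and eBayes, no covariate, two-sided, Benjamini-Hochberg over all probe sets, threshold 0.05). Symbols were updated through RefSeq genes on GRCm38.p6, which changed 1 member, Sc4mol. Of the tested probe sets, 40149 named 1 gene. The fit was tested on simulated data. Tables and figures used Python 3.11.15, pandas 2.3.3 and matplotlib 3.10.9. Arms are described by counts and means without a p. The members, the lists and the rule for named genes were chosen with earlier results of these data known. The rule gave values on every array for Fasn, Hmgcs1, the 4 regulators, and per arm the 3 genes with the largest SD and the 3 with the smallest p. From each further list it took the 2 genes with the smallest p. The fit was repeated with each array left out, with limma array weights, a trended robust prior or a replicate block, without the dimmest 40% of probe sets, after median centring or a second quantile step, and with probe sets averaged per gene.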

Additional observations from a re-analysis of the deposited data

How the results depend on the processing

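No alternative brought a member past the threshold, and the count stayed 0 in all 13 alternative settings. With 1 array left out at a time, 6 to 14 genes of the fatty acid arm had a higher Rarb-null mean. In the sterol arm 4 to 11 did. The median difference ran from -0.04 to 0.47 log2 in the fatty acid arm and from -0.22 to 0.22 log2 in the sterol arm. The difference between the arms ran from 0.07 to 0.32 log2. Members without overlap numbered 2 to 7, a count that leaving out an array can only keep or raise. With probe sets averaged per gene, 2 members did not overlap. No share over all genes was taken for these counts without overlap. Of the 16 members with values on every array, 8 kept their sign in every setting. With 1 array left out, Fasn ran from -0.20 to 0.47 log2, Pnpla3 from -0.61 to 0.31, Srebf1 from -0.029 to 0.23, Insig1 from -0.22 to 0.25, Lss from -0.23 to 0.49, Dhcr7 from -0.22 to 0.49, Nsdhl from -0.48 to 0.29 and Scap from -0.10 to 0.091. With array weights, Lss was -0.056, Dhcr7 -0.13 and Scap 0.050 log2, and with probe sets averaged Lss was -0.14, Nsdhl 0.012 and Scap 0.12 log2. The cause was not tested.

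With the replicate number as a block, 0 members passed. Each number occurs once in each genotype, so the block cannot change the differences, their counts and medians, or the overlap. Only standard errors and p-values can change. The adjusted p in limma went from 0.923 to 0.675 for Acacb and from 0.931 to 0.662 for Cyp51. Whether the numbers pair the samples is not settled. Deviations of same-numbered arrays correlated at -0.20, 0.45 and 0.29, against -0.54 to 0.38 for differently numbered ones. With 3 arrays a group, standard errors of members ran from 0.10 to 0.76 log2.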
